A study of Mus musculus with 6 samples.

Results

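The genes described are 10 peptide precursors of hypothalamic neurons that lie mainly outside the suprachiasmatic nucleus (SCN), the site of the central circadian clock. They were chosen by symbol: Pmch, Hcrt, Pomc, Agrp, Npy, Cartpt, Trh, Crh, Ghrh and Tac2. All 10 were found among the 17645 genes listed in at least 1 library, and 9 of them passed the filter on low counts that left 14438 genes. RNA was sequenced from SCN tissue pushed out of frozen coronal brain sections with a needle, from female C57BL/6 mice killed in the dark between zeitgeber time (hours after lights on) 12 and 14. The 3 libraries titled r1r2V (replicates 1, 4 and 5) were read as those of the series title's knockout, which removes REV-ERBα and REV-ERBβ, repressors of the clock, from GABAergic neurons. The 3 libraries titled V (replicates 2, 3 and 4) were read as its control. Each library was made from equal amounts of RNA of 2 SCN. The sources used here do not give the driver of the deletion, the alleles, what V stands for, the age of the mice or whether pools came from separate animals. The p-values thus measure only how far these libraries differ, which may be in part technical.

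Neuropeptides are cut from precursor proteins and released by neurons that sit in separate nuclei of the hypothalamus. Melanin-concentrating hormone and the orexins come from neurons of the lateral hypothalamic area. Melanocortins, agouti-related peptide, growth hormone-releasing hormone and neurokinin B are made in the arcuate nucleus, at the base of the hypothalamus above the pituitary. Corticotropin-releasing hormone and thyrotropin-releasing hormone are made in the paraventricular nucleus, and thyrotropin-releasing hormone in several other hypothalamic sites too. A tissue punch aimed at the SCN can take in some of what lies around it, and in such bulk RNA fewer cells of a type cannot be told apart from less RNA per cell.

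Total expected counts ran from 17040698 to 17566335 in the r1r2V libraries and from 15729603 to 17780928 in the V libraries. Neither targeted transcript was lower in r1r2V, although the totals cover all exons and the sources used here do not say which were deleted: Nr1d1, the REV-ERBα gene, had 167 ± 25.7 CPM in r1r2V and 58.8 ± 3.27 CPM in V (SD, n = 3 each; edgeR adjusted p = 8.24e-05). Nr1d2, the REV-ERBβ gene, had 242 ± 28.6 CPM in r1r2V and 175 ± 6.01 CPM in V (SD, n = 3 each; edgeR adjusted p = 0.0553). The direction of the comparison therefore rests on the sample titles. The SCN markers Avp and Vip were found in all 6 libraries, but Avp is not particular to the SCN and Vip was low in r1r2V replicate 5. Avp, the vasopressin gene of the SCN and of the paraventricular and supraoptic nuclei, had 304, 353 and 725 FPKM (fragments scaled by transcript length and library size) in r1r2V replicates 1, 4 and 5 and 465, 489 and 675 FPKM in V replicates 2, 3 and 4. Vip, the gene of vasoactive intestinal peptide in the ventral SCN, had 35.4, 49.3 and 7.87 FPKM in r1r2V and 59.3, 36.9 and 35.9 FPKM in V in the same order. Sampling noise alone did not account for the differences between libraries of a group. The chi-square per degree of freedom over genes was 11.3 to 13 between r1r2V libraries and 3.74 to 5.4 between V libraries. Each library was counted as 1 sample, although these values do not show whether pools came from separate animals.

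Pmch, Hcrt and Pomc varied most among libraries, and the 250 bases before their transcription starts are shown because these are the genes the following values turn on. The sequences are RefSeq's for GRCm38.p6, 5′ to 3′ on the gene's strand. Capitals mark TATAAA, the TATA box, and AGGTCA, the core that REV-ERB and other nuclear receptors bind, each searched on both strands.
Pmch (chr10:88090822-88091071, plus strand): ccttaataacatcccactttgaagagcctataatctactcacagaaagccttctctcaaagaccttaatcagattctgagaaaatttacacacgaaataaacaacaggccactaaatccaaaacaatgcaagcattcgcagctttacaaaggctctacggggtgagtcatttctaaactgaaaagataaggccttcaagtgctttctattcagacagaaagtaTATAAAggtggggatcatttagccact
Hcrt (chr11:100762932-100763181, minus strand): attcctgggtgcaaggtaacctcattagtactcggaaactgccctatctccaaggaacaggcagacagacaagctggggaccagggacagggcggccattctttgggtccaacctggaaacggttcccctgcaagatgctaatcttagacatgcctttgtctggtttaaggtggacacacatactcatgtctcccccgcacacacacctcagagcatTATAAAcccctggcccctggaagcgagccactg
Pomc (chr12:3954695-3954944, plus strand): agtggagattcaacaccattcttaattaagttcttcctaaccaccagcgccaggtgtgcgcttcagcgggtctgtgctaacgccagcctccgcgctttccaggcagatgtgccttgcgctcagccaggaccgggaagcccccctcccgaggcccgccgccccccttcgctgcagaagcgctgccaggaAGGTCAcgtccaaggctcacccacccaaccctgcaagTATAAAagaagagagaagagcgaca
TATAAA began 27 bases before the start of Pmch, 33 before that of Hcrt and 25 before that of Pomc. The window of Pomc also held AGGTCA, 62 bases before the start, and those of Pmch and Hcrt did not. The promoter table held 8 of the 10 genes (not Agrp and Crh), with 2 windows for Ghrh. Of these 8, AGGTCA stood in the windows of 3 (Pomc, Trh and Ghrh) and TATAAA in those of 4 (Pmch, Hcrt, Pomc and Ghrh). Over all 32851 windows of the same length, 14% held AGGTCA and 12.4% TATAAA. The E-box CACGTG, which clock activators bind, stood in 0 of the 8 and in 6.02% of all windows. A match only describes the letters of the window.

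Pmch, which encodes the precursor of melanin-concentrating hormone, ranged more widely than any other of the 10 genes. It had 26.2, 2.54 and 896 FPKM in r1r2V replicates 1, 4 and 5, against 19.1, 331 and 35.8 FPKM in V replicates 2, 3 and 4. One library of each genotype was high (r1r2V replicate 5 and V replicate 3), r1r2V replicate 4 was the lowest of all, and the groups overlapped. The 896 FPKM made Pmch the gene of rank 33 among the 16430 listed in that library, and the 2.54 FPKM put it at rank 11084 of 16459. The counts behind these levels were 9966 (95% Poisson interval 9771 to 10164) in r1r2V replicate 5 and 29 (19.4 to 41.6) in r1r2V replicate 4. Intervals of this kind cover counting error only. Within r1r2V the highest library stood 353-fold above the lowest in FPKM, and within V 17.3-fold. Pmch lies on chromosome 10 (88091072 to 88092374, plus strand), and 435 of its exon bases overlap Parpbp, a gene of the minus strand. The sources used here do not say whether counting used strand. Parpbp, with 9.17, 1.04 and 41.1 expected counts in r1r2V replicates 1, 4 and 5 and 12.3, 15.9 and 7.16 in V replicates 2, 3 and 4, was also highest where Pmch was highest and lowest where Pmch was lowest.

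Hcrt, which encodes the precursor of orexin A and orexin B, had 5.68, 2.93 and 33.1 FPKM in r1r2V replicates 1, 4 and 5, against 1.16, 19.4 and 16.8 FPKM in V replicates 2, 3 and 4. The same library, r1r2V replicate 5, was highest for Hcrt and for Pmch, while the lowest for Hcrt was V replicate 2, with 10 counts (95% Poisson interval 4.8 to 18.4). The groups overlapped, and the highest library stood 11.3-fold above the lowest within r1r2V and 16.7-fold within V. These lateral hypothalamic genes did not keep one proportion to each other. Pmch stood at 4.61, 0.867 and 27.1 times the FPKM of Hcrt in r1r2V replicates 1, 4 and 5, and at 16.4, 17.1 and 2.13 times in V replicates 2, 3 and 4. V replicate 4 held nearly as much Hcrt as V replicate 3, with 35.8 against 331 FPKM of Pmch. Hcrt (chromosome 11, 100761693 to 100762931, minus strand) had no exon overlap with another gene.

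**Figure D1:**
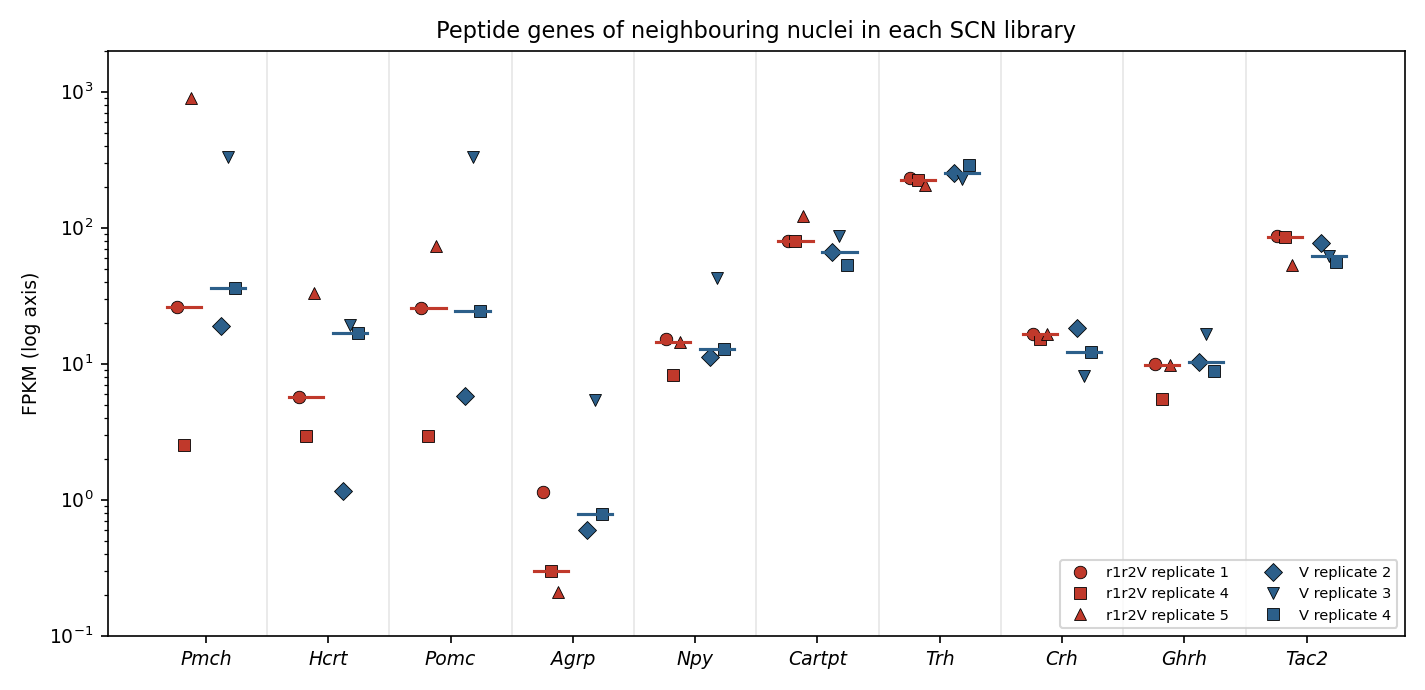
FPKM (log axis) of the 10 peptide genes in each library, with r1r2V in red left of V in blue and the median of each group as a bar. Pmch, Hcrt and Pomc spread over more than 10-fold within each group, whereas Trh stayed between 206 and 291 FPKM in all 6 libraries.

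Pomc, the precursor of the melanocortins, ACTH and beta-endorphin, had 25.8, 2.94 and 73.9 FPKM in r1r2V replicates 1, 4 and 5, against 5.81, 328 and 24.3 FPKM in V replicates 2, 3 and 4. V replicate 3 was far above the other 5 libraries, r1r2V replicate 4 was the lowest, and the groups overlapped. The highest library stood 25.1-fold above the lowest within r1r2V and 56.5-fold within V. Pomc is also a gene of pituitary corticotrophs and melanotrophs, and V replicate 3 held pituitary transcripts. Gh, the growth hormone gene, had 0 FPKM in the 3 r1r2V libraries, against 0, 567 and 0.08 FPKM in V replicates 2, 3 and 4. Prl, the prolactin gene, had 0.96, 0.14 and 0 FPKM in r1r2V replicates 1, 4 and 5, against 0.57, 535 and 0 FPKM in V replicates 2, 3 and 4. Cga, the gene of the alpha subunit of pituitary glycoprotein hormones, had 0 FPKM in the 3 r1r2V libraries, against 0.19, 30.5 and 0 FPKM in V. The 7 anterior pituitary markers summed to 2.38, 2.01 and 1.26 FPKM in r1r2V, against 2.48, 1141 and 1.93 FPKM in V in the same order of replicates. Of these 7, Tshb, the thyrotropin beta gene, was at 0 in V replicate 3. Their part in the Pomc level of V replicate 3 was not tested. Tbx19, a transcription factor gene of corticotrophs and melanotrophs chosen after its values were seen, had 8, 2 and 5 counts in r1r2V, against 1, 27 and 0 counts in V. In r1r2V replicate 5, where Pomc was second highest, Gh, Prl and Cga were at 0.

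Agrp, Npy and Ghrh were highest in V replicate 3 as well, whereas Tac2 and Cartpt, also made in arcuate neurons, were not. Agrp, whose product opposes melanocortins at their receptors, had 1.14, 0.3 and 0.21 FPKM in r1r2V replicates 1, 4 and 5, against 0.6, 5.38 and 0.78 FPKM in V replicates 2, 3 and 4. It rested on 12, 3 and 2 counts in r1r2V and on 6, 54 and 7 counts in V, so that 5 of the 6 libraries held 12 counts or fewer. The 54 counts of V replicate 3 had a 95% Poisson interval of 40.6 to 70.5, above that of every other library. Agrp shares 114 exon bases with Ctcf, a gene of the opposite strand that had 21.1 to 22.7 FPKM in r1r2V and 21 to 21.2 FPKM in V.

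Npy, the neuropeptide Y gene, which arcuate Agrp neurons and many other neurons express, had 15.1, 8.27 and 14.4 FPKM in r1r2V, against 11.1, 42.4 and 12.9 FPKM in V. Apart from V replicate 3 the libraries lay between 8.27 and 15.1 FPKM. Ghrh, the gene of growth hormone-releasing hormone, had 10, 5.52 and 9.82 FPKM in r1r2V, against 10.3, 16.4 and 8.85 FPKM in V. Its order was that of Npy at both ends, with V replicate 3 highest and r1r2V replicate 4 lowest, over a 2.98-fold range in all. The arcuate genes did not keep one proportion either. In V replicate 3 Pomc stood at 7.75 times the FPKM of Npy, against 1.71, 0.356 and 5.13 times in r1r2V replicates 1, 4 and 5, and 0.522 and 1.89 times in V replicates 2 and 4.

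Tac2, the neurokinin B gene, which is expressed in the arcuate nucleus and in other forebrain regions, had 87, 86.1 and 53.1 FPKM in r1r2V, against 77.5, 62.2 and 56 FPKM in V. It was lowest in r1r2V replicate 5 and not raised in V replicate 3. All 6 libraries lay within a 1.64-fold range. Cartpt, the gene of cocaine- and amphetamine-regulated transcript, made in arcuate, lateral and paraventricular neurons among others, had 80.3, 80 and 123 FPKM in r1r2V, against 66.1, 87.4 and 53.3 FPKM in V. It was highest in r1r2V replicate 5, as Pmch was, and next highest in V replicate 3, but over a 2.3-fold range and not the 353-fold range of Pmch.

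Of the paraventricular releasing hormone genes, Trh had the narrowest range of the 10 over all 6 libraries (1.41-fold), and Crh a 2.26-fold range, all of it within V. Trh, the precursor of thyrotropin-releasing hormone, had 231, 224 and 206 FPKM in r1r2V, against 254, 228 and 291 FPKM in V. By the median of the 6 libraries it was the most abundant of the 10 genes (229 FPKM), and it ranked between 265 and 394 among the genes listed in each library. Crh, the gene of corticotropin-releasing hormone, had 16.6, 15.2 and 16.5 FPKM in r1r2V, against 18.3, 8.09 and 12.2 FPKM in V. The r1r2V libraries were alike within counting error, with a chi-square per degree of freedom of 0.605, where 1 is what counting error alone gives. V replicate 3, where Pomc, Agrp, Npy and Ghrh stood high, had the lowest Crh of the 6. By median level the order of the 10 genes was Trh (229 FPKM), Cartpt (80.1), Tac2 (69.9), Pmch (31), Pomc (25.1), Crh (15.9), Npy (13.6), Hcrt (11.3), Ghrh (9.91) and Agrp (0.69). Neighbours in this order overlapped in their range over libraries, except Trh with Cartpt and Ghrh with Agrp.

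**Figure D2:**
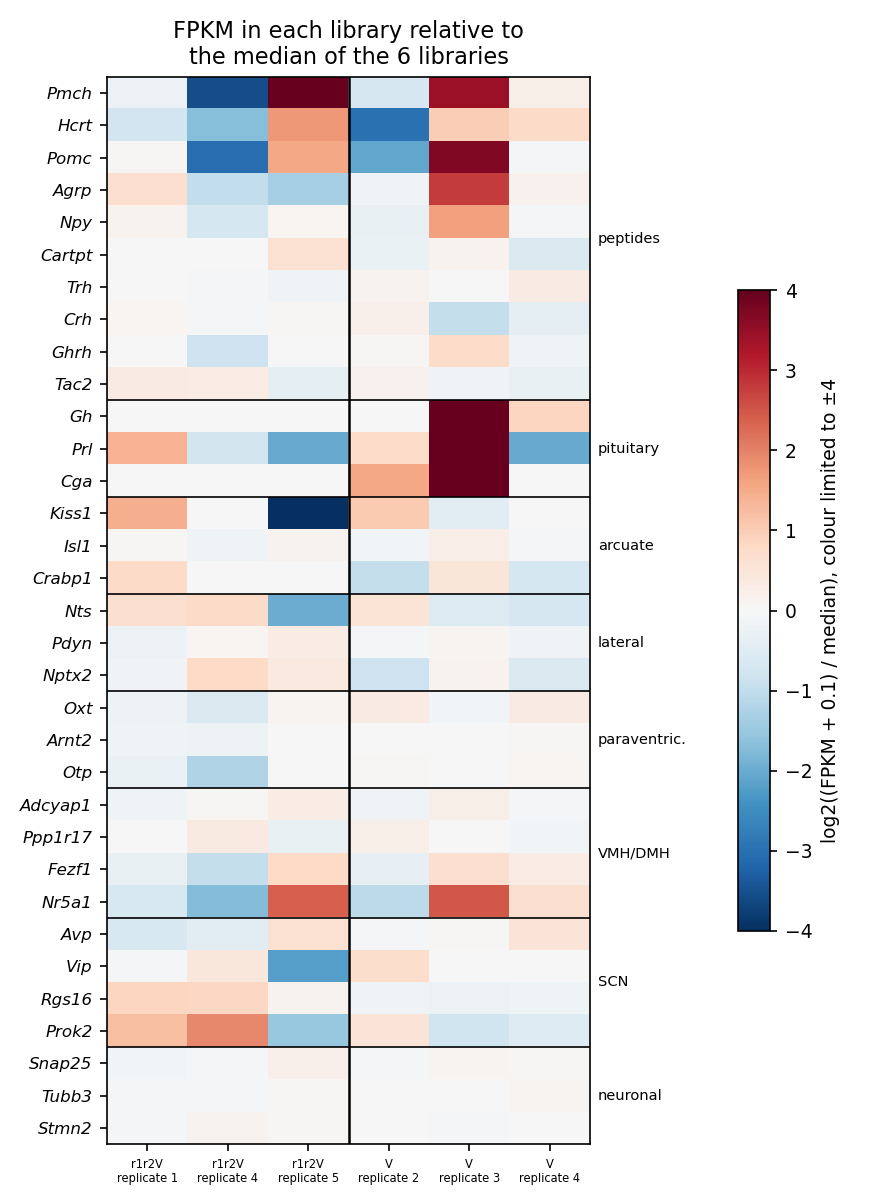
Log2 of (FPKM + 0.1) in each library relative to the median of the 6 libraries, for the 10 peptide genes and for markers of the pituitary, of neighbouring nuclei (VMH/DMH are the ventromedial and dorsomedial nuclei), of the SCN and of neurons. The library r1r2V replicate 5 held high Pmch and Hcrt together with low Vip, Prok2 and Kiss1. Avp, which is not particular to the SCN, was highest there of the 6 libraries. V replicate 3 held Gh, Prl and Cga together with high Pomc, Agrp and Npy.

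Set against other genes, the spread within a genotype was wide for most of the 10. The highest library stood more than 2-fold above the lowest for 4 of 10 in r1r2V (Pmch, Hcrt, Pomc and Agrp) and for 6 of 10 in V (the same genes with Npy and Crh). Agrp did not pass the filter, and of the 9 tested genes this held for 3 in r1r2V and 5 in V. Among all 14438 genes tested it held for 4.81% in r1r2V and 2.47% in V. Among the 11787 with a mean of at least 5 CPM it held for 1.14% in r1r2V and 0.271% in V. The median SD of log2(CPM + 0.5) within the group was 0.42 in r1r2V and 0.79 in V over the 10 genes. Over the 9 tested ones it was 0.40 in r1r2V and 0.58 in V, and over all genes tested 0.13 in r1r2V and 0.08 in V. Pmch had an SD of 4.08 in r1r2V and 2.13 in V, and Pomc one of 2.24 in r1r2V and 2.88 in V. Trh, with an SD of 0.08 in r1r2V and 0.18 in V, varied more than 22.9% of the genes tested in r1r2V and more than 84.1% in V. Crh had an SD of 0.06 in r1r2V and 0.58 in V.

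The spread was larger in r1r2V than in V for 3 of the 10 genes (Pmch, Tac2 and Cartpt), and for 71.8% of all genes tested. For Cartpt the SD rounds to 0.35 in both groups. The count in V rested on replicate 3: without it, 2 of the 10 genes (Hcrt and Pomc) stood more than 2-fold apart between V replicates 2 and 4. The count in r1r2V was 3 without replicate 5 and 3 without replicate 1.

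**Figure D3:**
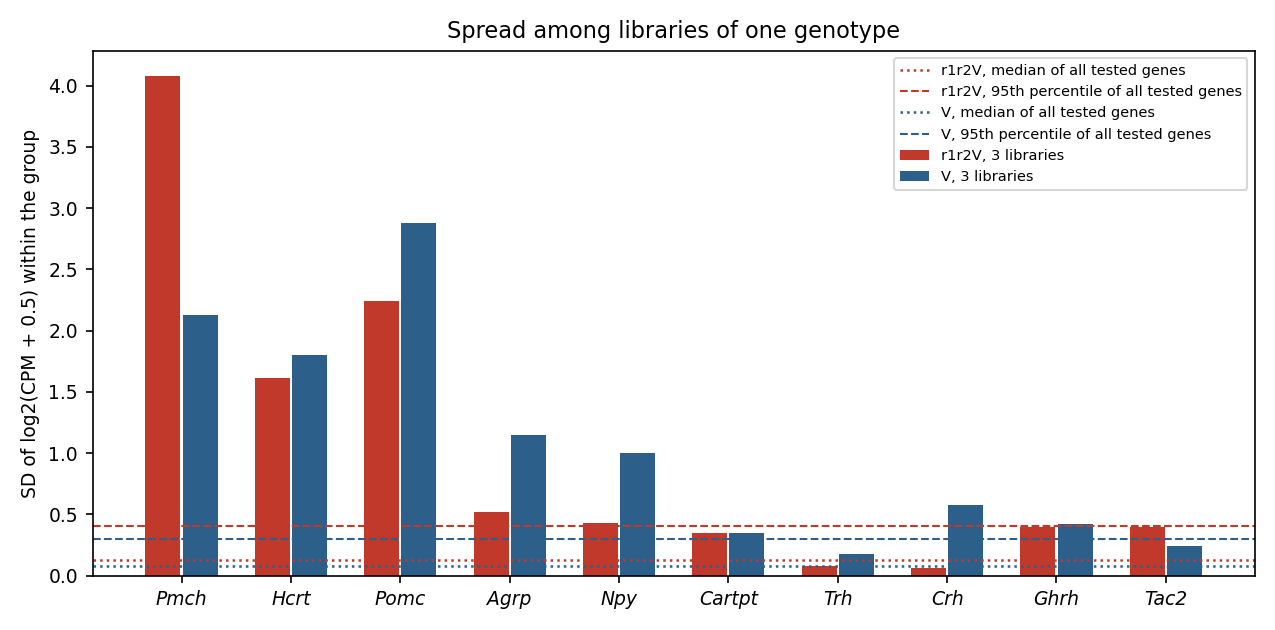
SD of log2(CPM + 0.5) among the 3 libraries of each group for the 10 genes, r1r2V in red left of V in blue, with dotted lines at the median and dashed lines at the 95th percentile of all genes tested in each group. Pmch, Hcrt and Pomc lie far above the dashed line in both groups, and Trh and Crh fall below the dotted line in r1r2V.

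The libraries r1r2V replicate 5 and V replicate 3 shared some of their high genes and differed in others. The library r1r2V replicate 5 held the highest Pmch, Hcrt and Cartpt and the lowest Agrp, Trh and Tac2, where 16.7% of the genes tested had their highest value and 16.9% their lowest. V replicate 3 was second highest for Pmch, Hcrt and Cartpt, and r1r2V replicate 5 was second highest for Pomc. The library r1r2V replicate 4 held the lowest Pmch, Pomc, Npy and Ghrh, where 24.8% of the genes tested had their lowest value. V replicate 3 held the highest value of Pomc, Agrp, Npy and Ghrh, where 9.66% of the genes tested had their highest value. Summed over Pmch and Hcrt the level was 31.9, 5.47 and 929 FPKM in r1r2V replicates 1, 4 and 5, against 20.2, 350 and 52.6 FPKM in V replicates 2, 3 and 4. Summed over Pomc, Agrp, Npy and Ghrh it was 52.1, 17 and 98.3 FPKM in r1r2V, against 27.9, 393 and 46.8 FPKM in V. These 4 genes are those highest in V replicate 3, so the peak of their sum there follows from the choice of genes. With Tac2, also an arcuate gene, the sum was 139, 103 and 151 FPKM in r1r2V, against 105, 455 and 103 FPKM in V. The sum of Trh and Crh kept between 223 and 248 FPKM in r1r2V and between 236 and 303 FPKM in V.

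Markers of the nuclei around the SCN that are not among the 10 varied in the same libraries in part. Nr5a1, which encodes a transcription factor of the ventromedial nucleus and of pituitary gonadotrophs, had 0.91, 0.38 and 8.15 FPKM in r1r2V replicates 1, 4 and 5, against 0.66, 8.68 and 2.39 FPKM in V replicates 2, 3 and 4. Fezf1, another ventromedial gene, had 6.9, 4.38 and 15 FPKM in r1r2V, against 6.77, 13.6 and 10.7 FPKM in V. Both were high in the libraries with the most Pmch and lowest in r1r2V replicate 4. Sox14 and Adcyap1 of the same list also had their highest values in those libraries. Gpr50 and Ppp1r17 of that list instead had their lowest value in r1r2V replicate 5. Gpr50 had 5.24, 3.88 and 1.32 FPKM in r1r2V, against 3.48, 3.95 and 3.63 FPKM in V. Ppp1r17 had 13.8, 17.8 and 11.4 FPKM in r1r2V, against 16.4, 14.1 and 12.8 FPKM in V. Kiss1, the kisspeptin gene of the arcuate nucleus and of the periventricular area before it, went another way, with 34, 12.3 and 0.44 FPKM in r1r2V, against 25.6, 9.12 and 12.6 FPKM in V. Nts, the neurotensin gene, had 121, 133 and 19.7 FPKM in r1r2V, against 114, 53.2 and 49.3 FPKM in V, and so was lowest where Pmch was highest. Other genes of the arcuate and lateral lists went other ways. Tbx3, Slc6a3 and Isl1 of the arcuate list were highest in V replicate 3 and next highest in r1r2V replicate 5. Crabp1 and Nptx2 were highest in r1r2V replicates 1 and 4. Lepr of the arcuate list, and Lhx9 and Pdyn of the lateral list, were highest in r1r2V replicate 5. Ghsr of the arcuate list was lowest there, as Kiss1 was. In that library, r1r2V replicate 5, Prok2, the gene of an SCN output peptide, was also lowest, with 9.03, 15 and 1.29 FPKM in r1r2V, against 5.66, 2.22 and 2.68 FPKM in V. Vip, Grp, Nms, Vipr2, Lhx1, Rorb, Gpr176 and Zfhx3 of the SCN list were lowest there too, where 16.9% of the genes tested had their lowest value. Of the same list Avp was highest there, and Six6, Syt10 and Rgs16 were at neither end. Isl1 and Crabp1 of the arcuate list had log2 fold changes of -0.03 and 0.56, Pdyn and Nptx2 of the lateral list 0.09 and 0.78, and Adcyap1 and Ppp1r17 of the ventromedial and dorsomedial list 0.04 and -0.01. Of these 6 genes 0 passed (edgeR adjusted p = 0.514 to 0.991). Rgs16, a regulator of G-protein signalling in the SCN, had 52, 50 and 31.6 FPKM in r1r2V, against 25.4, 24 and 24.9 FPKM in V (edgeR adjusted p = 0.0588). Nr5a1, Sox14, Gpr50 and Prok2 were chosen for mention after their values were seen. So were the other genes of the SCN, arcuate and lateral lists beyond the 3 most abundant of each. The part of punch position in these values was not tested.

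Most markers of the paraventricular nucleus, of neurons and of ependyma stood within 2-fold in each group. Of 5 tested paraventricular and supraoptic genes 1 (Otp, 2.31-fold within r1r2V) and of 5 tested ependymal and tanycyte genes 0 exceeded it. Other lists were wider, beside 4.81% of all genes tested in r1r2V and 2.47% in V. It was exceeded by 3 of 7 arcuate genes in r1r2V and 4 in V, and by 1 of 4 lateral genes in each. For 6 ventromedial and dorsomedial genes the counts were 4 and 2, for 6 meningeal fibroblast genes 5 and 1, and for 13 SCN genes 3 and 2. Oxt, the oxytocin gene, had 1421, 1096 and 1760 FPKM in r1r2V, against 2075, 1545 and 2064 FPKM in V. Of 5 pan-neuronal genes, 0 stood more than 2-fold apart within either group, and Snap25, a synaptic vesicle fusion gene, lay between 536 and 664 FPKM in r1r2V and between 560 and 624 FPKM in V. Tubb3 and Stmn2, a tubulin and a microtubule regulator of neurons, had log2 fold changes of -0.06 and 0.06, and Arnt2, a transcription factor gene that paraventricular neurons need, one of -0.12. Mbp, the gene of a myelin protein of oligodendrocytes, in which the optic chiasm below the SCN is rich, had 1207, 1224 and 1488 FPKM in r1r2V, against 1311, 1212 and 1778 FPKM in V. Cnp, another myelin gene, had 155, 149 and 211 FPKM in r1r2V, against 170, 167 and 211 FPKM in V. The 6 genes of ependymal cells and tanycytes (Ccdc153, Dynlrb2 and Tmem212 most abundant) summed to between 96.9 and 99.8 FPKM in r1r2V and to 97.5, 115 and 99.1 FPKM in V replicates 2, 3 and 4. Rax, a transcription factor gene of tanycytes that did not pass the filter and was chosen after its values were seen, had 11, 1 and 5 counts in r1r2V, against 4, 23 and 2 counts in V, and so was highest in V replicate 3. The 6 genes of meningeal fibroblasts (Igf2, Dcn and Col1a2 most abundant) summed to 28.3, 29.8 and 63.4 FPKM in r1r2V replicates 1, 4 and 5, against 33.6, 41.7 and 27.7 FPKM in V. Their sum was thus highest in the library with the most Pmch and Hcrt. Lum, chosen after its values were seen, was instead highest in r1r2V replicate 4 (2.33 FPKM, against 2.2 in r1r2V replicate 5). The part of these fibroblast genes in the levels of Pmch and Hcrt was not tested.

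Between the genotypes, none of the 9 tested genes passed the threshold on adjusted p. With edgeR's quasi-likelihood test, 0 of 9 rose and 0 fell at an adjusted p under 0.05, where 60 of 14438 genes (0.416%) did, 0.298% higher and 0.118% lower in r1r2V. At an unadjusted p under 0.05 there were 2 of the 9 (Trh and Cartpt), against 7.58% of all genes tested. Limma-voom and limma on FPKM called 0 of the 9 as well. DESeq2 called 0 of the other 8 and gave no p-value for Pmch, the most variable of them. The groups overlapped for 10 of 10 genes, while they did not overlap for 14.5% of all genes tested. The median log2 fold change (r1r2V minus V) of the 9 genes was 0.16, with 5 of 9 positive, beside 0.01 over all genes tested.

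The widest intervals belonged to Pmch, Pomc, Hcrt and Npy. Pmch averaged 200 ± 330 CPM in r1r2V and 83.1 ± 113 CPM in V (SD, n = 3 each), a log2 fold change of 1.26 with a 95% interval of -1.95 to 4.47 (edgeR adjusted p = 0.831). Its direction turned without r1r2V replicate 5, to -3.18, and with all 6 libraries under limma-voom (-0.66) and limma on log2(FPKM + 1) (-0.50) or log2(FPKM + 0.1) (-0.62). Pomc averaged 31.8 ± 33.8 CPM in r1r2V and 110 ± 167 CPM in V (SD, n = 3 each), a log2 fold change of -1.80 with an interval of -4.46 to 0.86 (edgeR adjusted p = 0.727). Its direction turned without V replicate 3, to 1.19, and with both high libraries left out it was -0.07. Hcrt had a log2 fold change of 0.16 (-1.76 to 2.08, edgeR adjusted p = 0.97), which was -1.53 without r1r2V replicate 5. Npy had one of -0.82 (-1.84 to 0.20, edgeR adjusted p = 0.686), which was 0.06 without V replicate 3.

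The intervals of the remaining tested genes were narrower. Trh had a log2 fold change of -0.22 with a 95% interval of -0.42 to -0.02, an unadjusted p of 0.033 and an edgeR adjusted p of 0.604. Cartpt had one of 0.45 (0.02 to 0.89), with an unadjusted p of 0.0423 and an edgeR adjusted p of 0.64. Tac2 had one of 0.21 (-0.20 to 0.61), Crh one of 0.32 (-0.18 to 0.83) and Ghrh one of -0.50 (-1.12 to 0.12), with edgeR adjusted p of 0.784, 0.736 and 0.685. Agrp did not pass the filter, and with no filter its log2 fold change was -1.95 (edgeR adjusted p = 0.696). These p-values do not show that the genotypes are alike, since the upper bound of Pmch and the lower bound of Pomc lie more than 4 from 0 on the log2 scale.

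**Figure D4:**
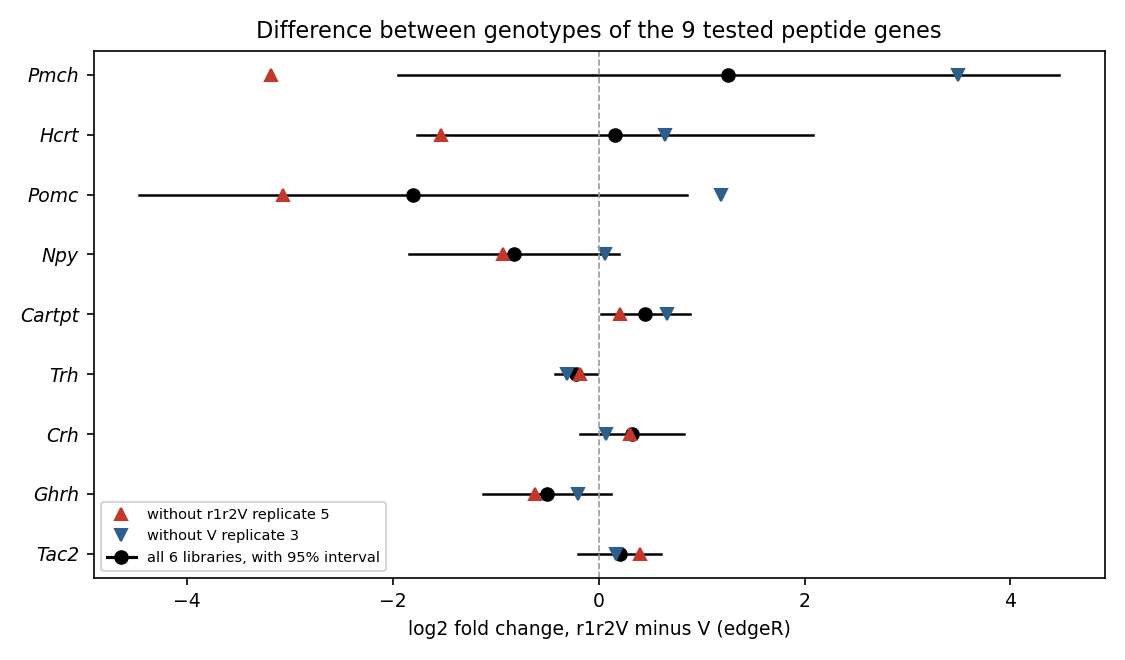
Log2 fold change (r1r2V minus V) of the 9 tested genes with all 6 libraries (black, with the 95% interval) and without r1r2V replicate 5 (red) or V replicate 3 (blue). The points for Pmch (1.26, -3.18 and 3.49) and Pomc (-1.80, -3.07 and 1.19) move across 0 when a single library is left out, and those of Trh stay between -0.31 and -0.18.

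The receptors of these peptides were even in sum, and 11 of 13 stayed within 2-fold in both groups. All 14 were listed, 13 were tested, 0 rose and 0 fell, and the median log2 fold change was -0.05. Their FPKM summed to 57.0, 64.1 and 56.6 in r1r2V replicates 1, 4 and 5, against 58.6, 58.1 and 57.4 in V replicates 2, 3 and 4. Mchr1, the receptor gene of melanin-concentrating hormone, had 6.71, 7.48 and 8.62 FPKM in r1r2V, against 7.42, 7.35 and 8.92 FPKM in V, a range far below that of Pmch. Npy2r and Npy1r, receptor genes of neuropeptide Y, had log2 fold changes of 0.20 and 0.17 (edgeR adjusted p = 0.849 and 0.66). Within r1r2V 2 of the 13 (Npy2r and Trhr2), beside 4.81% of all genes tested, stood more than 2-fold apart, and within V 0 of 13. Npy2r had 11.8, 18 and 7.73 FPKM in r1r2V, against 12.5, 10.2 and 10.3 FPKM in V. Trhr2, a receptor gene of thyrotropin-releasing hormone chosen after its values were seen, had 15, 5 and 15 counts in r1r2V, against 20, 20 and 16 counts in V. Ghrhr, the receptor gene of growth hormone-releasing hormone in pituitary somatotrophs, had 0 FPKM in the 3 r1r2V libraries, against 0, 0.15 and 0 FPKM in V, and so was listed only in the library with high Gh.

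Of 6 genes that process or inactivate these peptides, 0 rose and 0 fell. Cpe, the carboxypeptidase that trims cut precursors, had 1021, 1034 and 1141 FPKM in r1r2V, against 1095, 1015 and 1077 FPKM in V. Pcsk2, a prohormone convertase, had a log2 fold change of -0.13 and Pam, the peptide amidating enzyme, one of 0.00 (edgeR adjusted p = 0.718 and 1). In the lists of neighbouring nuclei 0 genes passed either. The median log2 fold change was -0.03 for 7 arcuate genes, 0.37 for 4 lateral hypothalamic genes, -0.12 for 5 paraventricular and supraoptic genes and -0.16 for 6 ventromedial and dorsomedial genes. It was -0.12 for 13 SCN genes, of which 0 passed. Otp, a transcription factor gene of paraventricular and arcuate neurons, had 12.2, 6.41 and 14.8 FPKM in r1r2V, against 15.3, 14.7 and 15.6 FPKM in V, and was lowest in r1r2V replicate 4, as Pmch, Pomc, Npy and Ghrh were.

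For each of the 9 tested genes, all with a mean of at least 1 CPM, the genes with the most similar profile over the 6 libraries were looked up by Pearson's r of log2(CPM + 0.5), among 13873 others. With 6 points that share their libraries, r is given as a description. Hcrt was nearest to Qrfp (r = 0.988), the gene of another peptide of lateral hypothalamic neurons, with 0.83, 0.32 and 3.47 FPKM in r1r2V replicates 1, 4 and 5, against 0.26, 1.83 and 1.82 FPKM in V replicates 2, 3 and 4. As for Hcrt, r1r2V replicate 5 was highest and V replicate 2 lowest. Pomc was nearest to Onecut2 (r = 0.996) and Isl1 (r = 0.986), both transcription factor genes, the second one active in arcuate Pomc neurons. Isl1 moved over a far smaller range, with 10.6, 9.14 and 11.3 FPKM in r1r2V, against 9.5, 12.3 and 10.1 FPKM in V. Tac2 was nearest to Fndc9 and Sybu (r = 0.991 each), and next to Lhx6 (r = 0.988), a transcription factor gene of GABAergic neurons, with 6.36, 6.72 and 3.43 FPKM in r1r2V, against 5.79, 3.99 and 3.32 FPKM in V. Crh was nearest to Nr2e1 (r = 0.998), Npy to Zfp653 (0.984), Trh to Tradd (0.993), Ghrh to Pcdhga3 (0.98), Cartpt to Elk1 (0.985) and Pmch to Adra2c (0.992). Between 0.216% and 0.923% of the genes compared reached an r of 0.9 with a given one of the 9.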

How the data were processed

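Per the file headers, the authors deposited for each library a table of RefSeq genes with an expected count (estimated reads, 9.65% to 10.2% of values not whole) and an FPKM value. Per the submitters' processing notes, the tools were RSEM 1.2.12, Bowtie2 2.2.5, HISAT2 2.0.4, Cufflinks 2.2.1, StringTie 1.0.4, DESeq2 and GATK, and the build was mm10. The sources used here do not give their roles, filters, library strandedness or batches. Genes that a table did not list were set to 0 in that library.

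Expected counts were rounded, filtered with edgeR 4.0.16 (R 4.3.3; filterByExpr, minimum count 10), scaled by TMM and compared with edgeR's quasi-likelihood test, adjusted by Benjamini-Hochberg over all 14438 genes (threshold 0.05). The procedure was tested on simulated data. Standard errors behind the 95% intervals were taken from the F statistic. CPM uses the scaled library sizes, and levels are compared between genes in FPKM only. Alternatives used DESeq2 1.42.0, limma 3.58.1, other scalings and filters, FPKM and the omission of libraries.

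The members and lists were chosen with earlier results of these data known. Named are all 10 genes, the 3 most abundant genes of each list (1 result that this rule takes is not reported here), the genes of nearest profile (of 3 each, those given), and genes stated to be chosen later (also Parpbp, Ctcf and Ghrhr, and Tshb by its 0). Positions are RefSeq's for GRCm38.p6 (mm10) and exon overlaps GENCODE M21's. BLAST+ 2.17.0 found no other gene at 95% identity over at least 0.5 of the shorter transcript for any of the 10.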

Additional observations from a re-analysis of the deposited data

How the results depend on the processing

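No paired analysis was possible because r1r2V and V have 1 replicate number in common, 4. For the 9 tested peptide genes, 0 were called under every alternative run, except that DESeq2 gave no p-value for Pmch, with a lowest adjusted p of 0.305 (Tac2, without r1r2V replicate 5). The direction of Pmch turned with limma-voom (-0.66), log2(FPKM + 1) (-0.50), log2(FPKM + 0.1) (-0.62), without r1r2V replicate 5 (-3.18) and without that library and V replicate 3 together (-0.94). That of Hcrt turned without r1r2V replicate 5 (-1.53), V replicate 2 (-0.39), or r1r2V replicate 5 with V replicate 3 (-1.04). Without V replicate 3, Pomc (1.19) and Npy (0.06) turned. Over the 6 fits without 1 library, the log2 fold change ran from -3.18 to 3.49 for Pmch, -1.53 to 0.64 for Hcrt, -3.07 to 1.19 for Pomc and -1.15 to 0.06 for Npy. Leaving out both libraries was chosen after seeing the data. Over all genes, 43 were higher and 17 lower, against 67 and 37 with DESeq2, 19 to 52 and 7 to 24 without 1 library, and 23 and 8 without both. Without V replicates 2, 3 and 4 in turn they were 20 and 7, 20 and 8, and 19 and 7. The number of peptide genes more than 2-fold apart within a group ran from 3 to 4 in r1r2V and from 2 to 6 in V without 1 library, 2 without V replicate 3, and was 4 and 6 under every scaling and in FPKM. Fewer libraries were then compared, and no other cause was tested. Agrp rested on few counts, with 12 or fewer in 5 libraries.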
